A study of Homo sapiens with 4 samples.

Results

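The zinc-finger genes of chromosome 19 were followed in TPC1 cells under BGJ398. TPC1 is an established line from a papillary thyroid carcinoma with a fusion of CCDC6 to RET, and BGJ398 blocks FGF receptor kinases. The members were all genes that the count table places on chromosome 19 and whose symbol starts with ZNF and a number. This rule, which used no measured value, took 253 of the 20372 genes in the table and 17.1% of the genes it places on that chromosome. Transcripts were counted by RNA-seq after 24 h of BGJ398 (2 libraries) and after 6 h of BGJ398 (2 libraries), so every library came from treated cells of the same line and no untreated library was analysed here. The labels give the dose as 100 micromolar, while the study's methods state that figure in nanomolar, and the dose is therefore not settled. Nothing states that the libraries of one time came from separate cultures, so p-values rest on a spread between libraries that could be technical only.

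Most of these genes encode C2H2 zinc-finger proteins, in which short loops held by cysteine and histidine residues around a zinc ion stand in tandem and read DNA. Many also carry a KRAB box, a domain that recruits the corepressor TRIM28 and, through it, histone methylation by SETDB1 and heterochromatin proteins. They lie in long tandem clusters on chromosome 19 that grew by gene duplication, and many are known to silence retrotransposons.

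The repeated unit is shown by a stretch of coding sequence that holds a finger and the bases after it, with the codons of the zinc-binding cysteines and histidines in capitals. The first is finger 2 of ZNF627, bases 589 to 672 of its coding sequence, which is followed by the common linker between fingers. The second is finger 14 of ZNF799, bases 1768 to 1851, the last of the 14 fingers of this spacing counted in that gene. The linker does not directly follow it, and its stretch occurs without a mismatch in the neighbouring paralog ZNF443. Both genes lie in the cluster between 11.59 and 12.75 Mb on hg19, and both stretches are exonic sequence of GENCODE release 44.
ZNF627 finger 2: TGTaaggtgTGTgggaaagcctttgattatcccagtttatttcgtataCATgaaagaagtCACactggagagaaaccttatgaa
ZNF799 finger 14: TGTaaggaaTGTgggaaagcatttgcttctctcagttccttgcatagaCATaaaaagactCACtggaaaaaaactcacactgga
Of the 14 fingers of this spacing in ZNF799, 1 was found unchanged in ZNF443. Reads from such stretches cannot be assigned to one paralog.

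Promoter windows of RefSeq (GRCh38.p14, 250 bases before to 50 after the start) were found for 213 members by symbol. Among all words of 7 letters counted on both strands, CCGGAAG, the core recognised by ETS factors, had the largest excess in these windows over those of the genes in the count table. It was present in 96 of 213 member windows (45.1%), against 14.3% of 14157 windows of genes in the count table and 35.0% of 206 windows of ZNF genes on other chromosomes. Of its 108 copies, 83 lay within 50 bases of the start. The word CCAAT was present in 53.5% of the member windows and 36.4% of those of the count table, GGGCGG in 67.6% and 59.4%, and the TATA word TATAAA in 1.88% and 9.37%. No word contains another. CCGGAAG was chosen after its share was seen, and a match is a word in a window, not a bound site.

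Windows of 3 members are printed with CCGGAAG and CCAAT in capitals on either strand. They are those of ZNF627, the member with the smallest p in the comparison of times (chr19:11597233-11597532, plus strand), of ZNF175, the member with the highest level among those with both words (chr19:51571033-51571332, plus strand), and of ZNF208, the member with the most fingers, which was silent here (chr19:22010894-22011193, minus strand).
ZNF627 promoter: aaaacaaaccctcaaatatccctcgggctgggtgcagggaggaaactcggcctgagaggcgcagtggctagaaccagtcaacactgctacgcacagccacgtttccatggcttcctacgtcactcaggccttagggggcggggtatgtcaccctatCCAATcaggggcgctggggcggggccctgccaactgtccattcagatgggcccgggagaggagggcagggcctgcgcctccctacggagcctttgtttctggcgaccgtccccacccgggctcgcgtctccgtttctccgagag
ZNF175 promoter: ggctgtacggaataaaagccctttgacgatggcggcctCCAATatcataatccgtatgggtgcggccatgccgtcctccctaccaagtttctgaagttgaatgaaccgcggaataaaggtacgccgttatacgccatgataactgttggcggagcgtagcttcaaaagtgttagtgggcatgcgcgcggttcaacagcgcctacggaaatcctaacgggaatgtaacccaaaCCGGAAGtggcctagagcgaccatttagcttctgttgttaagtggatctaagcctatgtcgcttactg
ZNF208 promoter: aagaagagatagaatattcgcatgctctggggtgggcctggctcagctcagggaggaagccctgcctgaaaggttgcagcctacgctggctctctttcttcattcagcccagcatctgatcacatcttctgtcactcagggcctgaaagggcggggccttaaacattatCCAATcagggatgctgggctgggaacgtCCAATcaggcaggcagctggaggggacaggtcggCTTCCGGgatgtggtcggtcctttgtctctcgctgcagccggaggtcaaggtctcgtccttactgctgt
The silent ZNF208 held CCGGAAG once and CCAAT at 2 places, and the expressed ZNF175 held each once. The same was seen over the family. CCGGAAG stood in 44.9% of the windows of 136 expressed members and in 45.5% of those of 77 members that were not expressed, and CCAAT in 53.7% and 53.2%. GGGCGG did differ, and stood in 59.6% of the windows of expressed members and 81.8% of those of members not expressed.

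Library totals were 25089167 and 24958447 for 24 h, against 25212226 and 26325512 for 6 h, and levels are given as CPM, the counts per 1000000 counts of a library whose total was scaled by TMM. The thyroid markers PAX8 and TG were expressed in all libraries, TSHR and NKX2-1 were at or near 0, and none of 5 leukocyte markers reached a mean of 1 CPM. Counts from the mitochondrial genome made up 1.68% and 2.98% of the libraries at 24 h, and 1.09% and 1.40% at 6 h. A change in the share of some cells and a change in the RNA of each cell cannot be told apart in bulk libraries.

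Expression of the family was broad and low. Of the 253 members, 151 (59.7%) had a mean of at least 1 CPM over the 4 libraries and 50 (19.8%) had no count in any. Of the rest, 25 were below 0.1 CPM and 27 between 0.1 and 1 CPM. Only 42 members reached 10 CPM. A count of 0 allows up to 3 counts, or 0.122 CPM in the library where 1 count weighs most, so absence was not shown. The members took between 0.117% and 0.14% of the counts of a library, with a summed level of 1296 and 1400 CPM at 24 h and 1205 and 1293 CPM at 6 h. The number of members at 1 CPM or more in a library was 148 and 154 at 24 h and 147 and 150 at 6 h.

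The share expressed was lower than among ZNF genes of other chromosomes, where 211 of 264 (79.9%) reached 1 CPM, and higher than among the other genes of chromosome 19, where 634 of 1229 (51.6%) did. Over all genes of the table it was 57.6%. Per kilobase of transcript, the expressed members had a median level of 1.36 CPM, against 3.44 CPM for expressed ZNF genes elsewhere, 14.6 CPM for the other expressed genes of chromosome 19 and 10.1 CPM for all expressed genes. These shares and medians are descriptions, with no test between the sets.

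Levels differed by more than an order of magnitude between expressed members. Per kilobase, ZNF581 and ZNF146 stood highest, at 22.5 and 21.4 CPM per kb. ZNF581 had 29.1 and 24.1 CPM at 24 h, against 28.1 and 26.3 CPM at 6 h. ZNF146, a protein made of zinc fingers with no KRAB box, had 71.8 and 64.0 CPM at 24 h, against 74.8 and 76.4 CPM at 6 h. Its libraries at 24 h lay below those at 6 h, while those of ZNF581 overlapped. The next in order were ZNF358 (13.5 CPM per kb), ZNF580 (12.8), ZNF444 (12.5), ZNF428 (12.4), ZNF627 (10.5), ZNF787 (9.51), ZNF584 (8.63) and ZNF274 (7.27), the last known to bring SETDB1 to the ends of other zinc-finger genes. ZNF580, ZNF444 and ZNF428 differed by less than the spread between their libraries. By counts alone, the 10 leading members also held ZNF175, ZNF260, ZNF561, ZNF507 and ZNF317, with means between 25.7 and 32.4 CPM. ZNF627 and ZNF584 were the only members of the leading 10 per kb whose fitted fold change between the times had an unadjusted p under 0.05 and a positive sign.

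Members without the KRAB motif were expressed more often than those with it. Coding sequence was found for 246 members, and 208 of them encoded the motif. Of these, 122 (58.7%) reached 1 CPM, with a median of 1.18 CPM per kb, and of the 38 without it 29 (76.3%) did, with a median of 3.57 CPM per kb. On other chromosomes the shares were close to each other, at 78.7% of 108 with the motif and 82.9% of 146 without it. By number of fingers, 42 of 73 members with 15 or more were expressed, 67 of 106 with 10 to 14, 33 of 56 with 5 to 9 and 9 of 11 with no more than 4. From 5 fingers up the share did not follow their number. The members with the most fingers were ZNF208 (36), ZNF729 (34) and ZNF91 (31). ZNF208 and ZNF729 had 0 counts in every library. ZNF91, known to repress SVA retrotransposons, had 0.674 and 1.41 CPM at 24 h, against 0.978 and 0.742 CPM at 6 h, and its times overlapped.

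**Figure D1:**
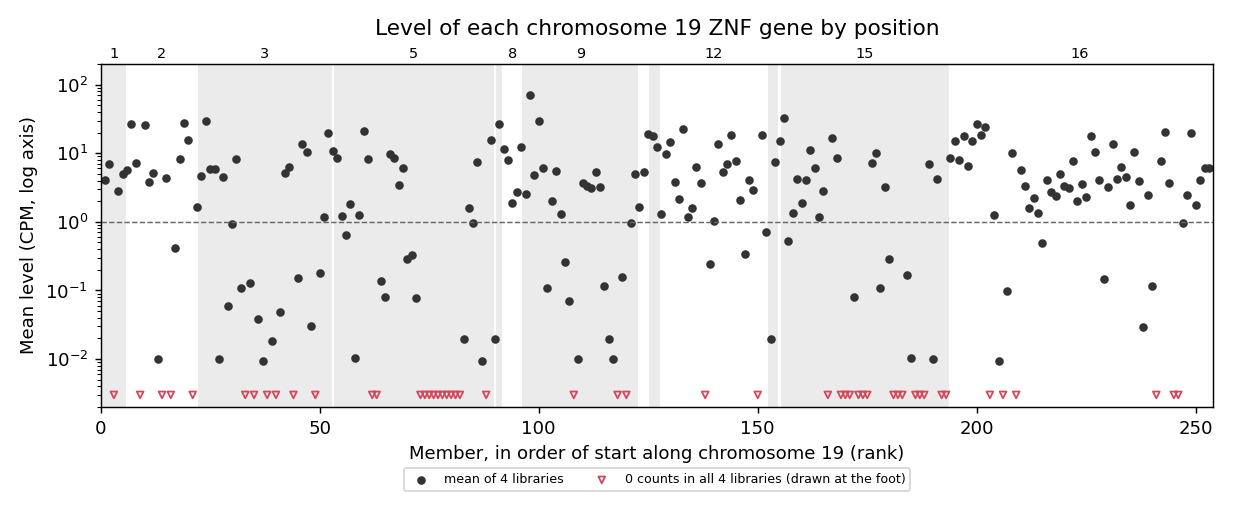
Mean level over 4 libraries (CPM, log axis) of the 253 members in order of their start along chromosome 19. Shading alternates between position clusters, those of at least 5 members carry their number, the dashed line marks 1 CPM and open triangles are the 50 members with 0 counts. Runs of triangles fall in clusters 5 and 15, and cluster 16 has few.

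Starts more than 1 Mb (1000000 bases) apart on hg19 divided the members into 16 clusters, of which 9 held at least 5 members. Cluster 5, between 19.78 and 24.31 Mb, and cluster 3, between 11.59 and 12.75 Mb, were the least expressed of these, with 13 of 36 (36.1%) and 12 of 30 (40.0%) members at 1 CPM. Cluster 15, between 52.07 and 54.08 Mb, had 16 of 38 (42.1%). Cluster 16, the last before the end of the long arm, had 47 of 60 (78.3%), cluster 12 had 20 of 25 and cluster 8 had 5 of 5. The plot of levels by position shows these differences between clusters.

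The silent members stood next to each other. The longest run below 1 CPM held 14 neighbouring members, ZNF738 to ZNF730 (19:21541732 to 23330021, hg19), in which 10 had no count and all 4 libraries together gave 73 counts. It holds the paralogs of ZNF91 that include ZNF208, ZNF729, ZNF43 and ZNF99. The table places 1 other gene in this stretch, also with no count. The members on either side were expressed. ZNF708, just before the run, had a mean of 6.03 CPM, and ZNF724P, just after it, had 1.61 CPM. Further runs were ZNF763 to ZNF625 in cluster 3, with 10 members and 36 counts in all, and ZNF468 to ZNF677 and ZNF610 to ZNF701 in cluster 15, with 9 and 7 members and 47 and 8 counts.

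Long runs of expressed members were found as well. The longest held 16 members, ZNF573 to ZNF222 (19:38226734 to 44537265), with means between 1.16 and 22.9 CPM. A run of 9, ZNF628 to ZNF444 (19:55987699 to 56672262), stood apart by its level and sequence. Its members had a median of 6.79 CPM per kb and a median transcript GC content of 69.1%, against 1.05 CPM per kb and 45.2% for the tested members in the rest of cluster 16.

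The leading member by counts of each cluster was ZNF555 (cluster 1), ZNF561 (2), ZNF627 (3), ZNF333 (4), ZNF90 (5), ZNF536 (6), ZNF507 (7), ZNF792 (8), ZNF146 (9), ZNF780A (10), ZNF574 (11), ZNF45 (12), ZNF114 (13), ZNF473 (14), ZNF175 (15) and ZNF581 (16). ZNF536, which restrains neuronal differentiation and stands alone, was the exception among these in having almost no counts, with no count at 24 h and 1 count in each library at 6 h. ZNF473, which acts in processing of histone pre-mRNA, had 14.8 and 14.5 CPM at 24 h, against 14.7 and 16.7 CPM at 6 h. ZNF90 had 18.8 and 27.8 CPM at 24 h, against 18.1 and 20.7 CPM at 6 h. The times overlapped for ZNF473 and for ZNF90.

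The comparison of times asks how levels after 24 h of FGFR inhibition differed from those after 6 h. After a filter on low counts 161 members were tested, together with 12388 other genes, and each fold change below is the log2 ratio of 24 h to 6 h. No member passed an adjusted p of 0.05 by the quasi-likelihood test of edgeR, nor did any of the 12549 genes (0.0%). The smallest adjusted p was 0.173. At an unadjusted p under 0.05, 14 members (8.70%) were higher and 2 (1.24%) lower, against 13.9% and 10.4% of all tested genes. DESeq2 called 1 member higher, ZNF627, and none lower, among the 11 members that it gave an adjusted p, where it called 5.59% of 7410 genes higher and 2.65% lower. Left-out libraries changed these counts. Without 24 h replicate 1 edgeR called 17 members higher and 4 lower, where it called 13.7% and 10.7% of 12776 genes, and without 6 h replicate 2 it called 8 higher and 0 lower, where it called 4.32% and 2.63% of 12762 genes. Both libraries at 24 h lay above both at 6 h for 54 members (33.5%) and below for 19 (11.8%), against 31.3% and 31.5% of all tested genes.

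Although no member was called, the signs of the fold changes were uneven. Of the 161 tested members 115 (71.4%) had a positive fold change, against 50.0% of all tested genes, and their median was 0.20, with the middle of the distribution between -0.02 and 0.38. The median was -0.13 over the other genes of chromosome 19, with 229 of 690 positive, 0.07 over the ZNF genes of other chromosomes and 0.00 over all tested genes. Within the spans of the clusters of at least 5 members, 67 other genes were tested, with a median of -0.13 and 25 positive. Without the filter on low counts the median of 203 members was also 0.20. The filter let 1 tested member pass through the libraries of one time alone, ZNF547.

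The size of the shift rested on particular libraries. With 24 h replicate 1 left out, the median of the members was 0.31, and with 6 h replicate 2 left out it was 0.24. It was 0.08 when 24 h replicate 2 was left out and 0.09 when 6 h replicate 1 was. Within each time the members also differed between the libraries, with a median of replicate 2 over replicate 1 of 0.15 at 24 h and 0.13 at 6 h, against 0.00 and -0.01 over all tested genes. The part of this difference between libraries in the comparison of times was not tested.

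**Figure D2:**
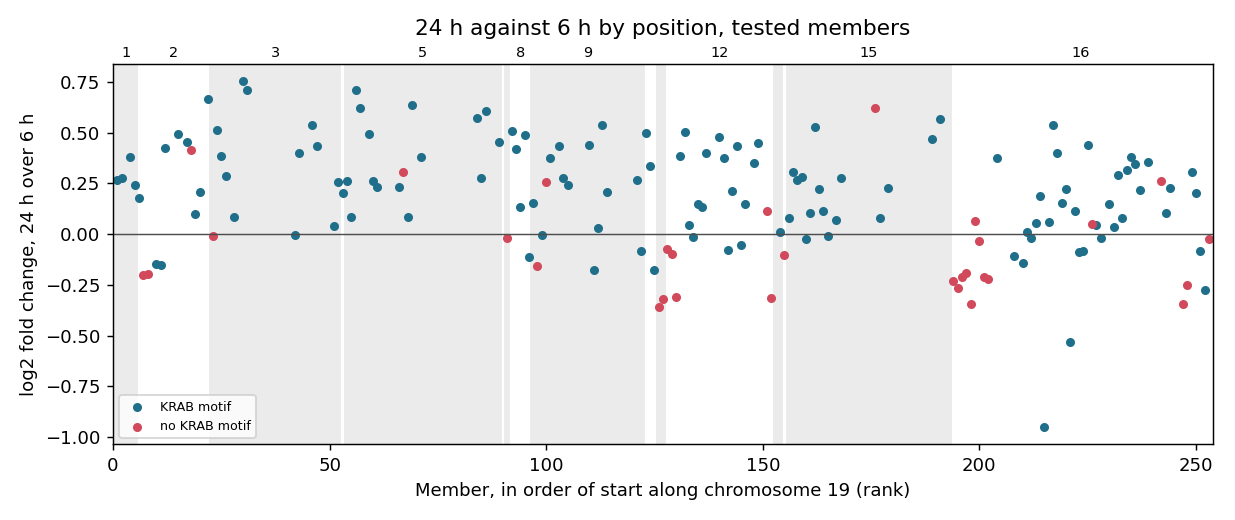
Log2 fold change of 24 h over 6 h for the 161 tested members, in order of their start along chromosome 19, coloured by the presence of the KRAB motif. Shading and numbers mark the position clusters. All 16 points of cluster 5 lie above 0, and a block of red points at the start of cluster 16 lies mostly below it.

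By position, among clusters of at least 5 members, all tested members had a positive fold change in clusters 5 and 1. Cluster 5 had 16 of 16 and a median of 0.34. Cluster 1 had 4 of 4 and a median of 0.27, or 0.29 after correction for length and GC content. Cluster 15 had 15 of 17 and a median of 0.23, cluster 3 had 11 of 13 and a median of 0.39, and cluster 8 had 4 of 5 and a median of 0.42. After correction for length and GC content the cluster medians were 0.18 in cluster 5, 0.14 in cluster 15, 0.24 in cluster 3 and 0.35 in cluster 8. The median difference of replicate 2 over replicate 1 within a time was 0.30 in cluster 5, 0.10 in cluster 15, 0.37 in cluster 3 and 0.30 in cluster 8, so that in clusters 5 and 3 it was about as large as the difference between the times. In cluster 16 only 28 of 49 were positive, and the median was 0.05. The summed level of cluster 3 was 116.7 and 149.2 CPM at 24 h, against 91.5 and 111.0 CPM at 6 h, so the times did not overlap. That of cluster 5 was 91.5 and 126.8 CPM at 24 h, against 77.1 and 93.8 CPM at 6 h, and they did. That of cluster 16 was 365.5 and 352.0 CPM at 24 h, against 354.0 and 363.0 CPM at 6 h.

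The values also divided by domain. Tested members with the KRAB motif had a median of 0.24, with 107 of 130 positive, and those without it a median of -0.16, with 8 of 31 positive. All 14 members higher at an unadjusted p under 0.05 carried the motif, and both lower ones lacked it. The 14 were 10.8% of the tested members with the motif, against 13.9% of all tested genes. The lower ones were 6.45% of those without it, against 10.4% of all tested genes. The summed level of members with the motif was 840.5 and 968.6 CPM at 24 h, against 736.8 and 823.6 CPM at 6 h. That of members without it was 455.9 and 431.2 CPM at 24 h, against 468.3 and 469.0 CPM at 6 h. The times did not overlap in either sum, and the sums moved in opposite directions. ZNF genes of other chromosomes divided in the same order, with medians of 0.17 over 90 with the motif and -0.05 over 125 without it. The medians were 0.36 with the motif and -0.13 without it when 24 h replicate 1 was left out, and 0.11 and -0.08 when 24 h replicate 2 was.

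**Figure D3:**
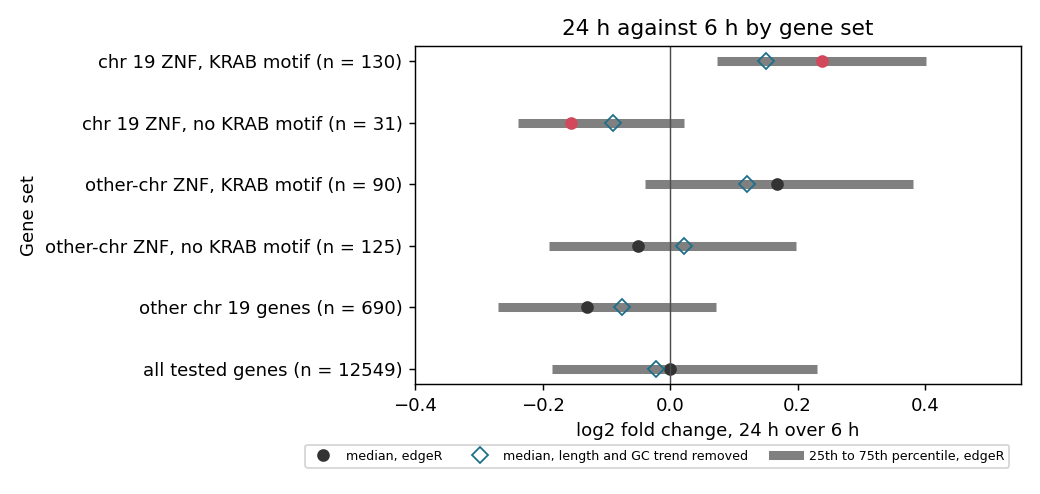
Median log2 fold change of 24 h over 6 h by gene set, with the 25th to 75th percentile as a bar and the median once a trend on length and GC content was taken out as an open diamond. The medians of chromosome 19 ZNF genes are 0.24 with the KRAB motif and -0.16 without it, and 0.15 and -0.09 without the trend.

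Base composition moved with these groups. The tested members with the KRAB motif had a median transcript GC content of 42.4% and those without it 62.6%. Of 24 tested members with a GC content of 55% or more, 2 had a positive fold change, against 113 of 137 below 55%. Among those below 55% the median was 0.24 over 126 members with the motif and 0.12 over 11 without it. Across the 161 tested members, which share their libraries, the fold change had a Spearman correlation of -0.53 with GC content and of 0.21 with the number of fingers, while the difference between the replicates had one of -0.35 with GC content. Over all tested genes the correlation of the fold change with GC content was -0.34. When a trend on transcript length and GC content was removed in each library, the median of the members was 0.12, with 109 of 161 positive, and it was 0.15 with the motif and -0.09 without it.

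**Figure D4:**
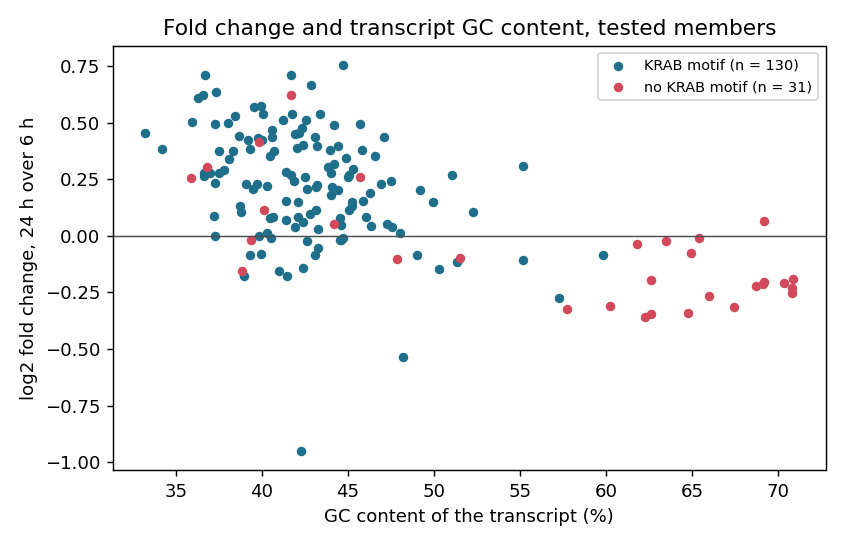
Log2 fold change of 24 h over 6 h against the GC content of the transcript for the 161 tested members, coloured by the presence of the KRAB motif. Members below 55% GC are mostly above 0 (113 of 137), and those at 55% or more mostly below it (22 of 24).

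The members with the smallest p that were higher at 24 h were KRAB zinc-finger genes of clusters 3, 5 and 15. ZNF627 (19:11670189 to 11729950) had 31.3 and 37.7 CPM at 24 h, against 21.7 and 26.7 CPM at 6 h, and its fold change was 0.51 ± 0.14 (SE). Its adjusted p was 0.173 in edgeR and 0.049 in DESeq2. This was the one member with a call by DESeq2, and the times did not overlap. With 24 h replicate 1 left out, edgeR called it as well (adjusted p of 0.0067), and the adjusted p in DESeq2 was 0.038. With 6 h replicate 2 left out, edgeR called it with a fold change of 0.67 (adjusted p of 0.020), while DESeq2 gave it no adjusted p. With 24 h replicate 2 or 6 h replicate 1 left out the fold change was 0.37 and neither tool called it. ZNF614 (19:52516018 to 52533493) had 11.6 and 14.6 CPM at 24 h, against 9.13 and 9.05 CPM at 6 h, with a fold change of 0.53 ± 0.16. ZNF700 (19:12035883 to 12061588) had 8.32 and 12.4 CPM at 24 h, against 5.87 and 6.75 CPM at 6 h, with a fold change of 0.71 ± 0.21. In these, as in the next 3, both libraries at 24 h lay above both at 6 h, which the choice by smallest p favours. ZNF254 (19:24216276 to 24312654) had 15.5 and 20.04 CPM at 24 h, against 12.4 and 13.5 CPM at 6 h. Its fold change was 0.45, and 0.15 after correction for length and GC content, where the others had 0.36 (ZNF799) to 0.56 (ZNF700). ZNF799 (19:12500830 to 12512085) had 13.2 and 19.3 CPM at 24 h, against 10.6 and 11.7 CPM at 6 h. ZNF845 (19:53837002 to 53858122) had 7.37 and 9.08 CPM at 24 h, against 5.67 and 6.20 CPM at 6 h. Replicate 2 was the higher library at 24 h in all 6 genes, and without 24 h replicate 1 edgeR called all 6, with fold changes between 0.60 and 0.96. Of the windows of 50 bases along the ZNF799 transcript 47.3% occurred in another gene, mainly ZNF443, so the values of that pair may share reads.

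Of the 6 members lower at 24 h with the smallest p, 5 lacked the KRAB motif. ZNF428 (19:44111371 to 44124026), with 1 finger, had 13.5 and 12.2 CPM at 24 h, against 15.9 and 15.9 CPM at 6 h, a fold change of -0.31 ± 0.13. ZNF526 (19:42724423 to 42732353) had 11.1 and 10.6 CPM at 24 h, against 14.3 and 12.8 CPM at 6 h, a fold change of -0.32 ± 0.13. Its neighbour ZNF574 (19:42572629 to 42585701) had 18.1 and 13.6 CPM at 24 h, against 21.4 and 19.3 CPM at 6 h, a fold change of -0.36 ± 0.16. These are the GC-rich members of clusters 11 and 12. In cluster 16 ZNF784 and ZNF579, which belong to the run ZNF628 to ZNF444, had fold changes of -0.34 ± 0.15 and -0.26 ± 0.13. ZNF547, the one of the 6 with the KRAB motif, had the lowest fold change of all tested members, -0.95 ± 0.41, on 8 and 9 counts at 24 h, against 15 and 19 counts at 6 h. It passed the filter through the libraries at 6 h alone, so its direction, and in part its rank, were set by the filter. The adjusted p of these 6 lay between 0.191 and 0.25 by edgeR, and DESeq2 gave none of them an adjusted p. In the other 5 as well both libraries at 24 h lay below both at 6 h, which the choice by smallest p favours.

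**Figure D5:**
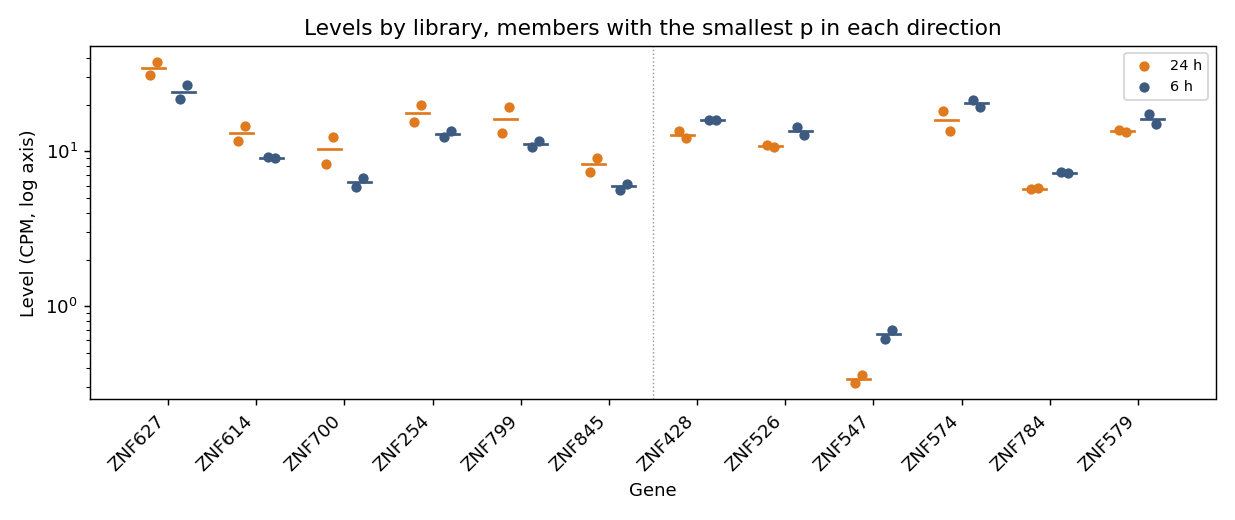
Level in each library (CPM, log axis) of the 6 members per direction with the smallest p, with 24 h left of 6 h for each gene and a line at the mean of 2 libraries. The points of the 2 times do not overlap in any of the 12 genes, and the spread at 24 h is wide for ZNF700 and ZNF799. The genes were chosen by p between these same libraries, which favours such separation. Of all tested genes 31.3% separated with 24 h above and 31.5% with 24 h below.

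Apart from ZNF627 and ZNF428, described above, the members with the highest levels had fold changes between -0.22 and 0.31. ZNF581 had a fold change of -0.04 ± 0.13, ZNF146 of -0.16 ± 0.10, ZNF175 of 0.08 ± 0.11, ZNF507 of -0.02 ± 0.11 and ZNF561 of 0.10 ± 0.11. ZNF260 had 30.8 and 33.9 CPM at 24 h, against 24.3 and 29.9 CPM at 6 h, a fold change of 0.26 ± 0.13. ZNF584 had 21.4 and 22.6 CPM at 24 h, against 17.1 and 18.5 CPM at 6 h, a fold change of 0.31 ± 0.12. ZNF358, ZNF317, ZNF444 and ZNF787 had fold changes between -0.15 and -0.22. In all 4 libraries neither DESeq2 nor the unblocked fit of edgeR called a member of this paragraph. A fit of edgeR blocked on the replicate number called ZNF260 (adjusted p of 0.026) and ZNF584 (0.017). It called 18.9% of all tested genes higher. The blocked fit after correction for length and GC content called ZNF584 (0.0074) and ZNF146 (-0.34, adjusted p of 0.00029). The share of all tested genes called by this corrected fit is not given here. Without 24 h replicate 1 the unblocked fit called ZNF358 (-0.45) and ZNF787 (-0.47).

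Genes for the machinery that KRAB proteins recruit were measured beside the family. All 16 measured members of the list were expressed, at 3.73 CPM per kb or more. None passed by edgeR (0.0% of all tested genes), and 11 of 16 had a negative fold change, with a median of -0.16. DESeq2 called 1 higher and 1 lower, where it called 5.59% and 2.65% of 7410 genes. CBX3, a heterochromatin protein, had 288.4 and 375.9 CPM at 24 h, against 226.7 and 252.4 CPM at 6 h, a fold change of 0.47 ± 0.15 and an adjusted p of 0.033 by DESeq2. CHD4, the ATPase of the NuRD complex, had 161.5 and 128.6 CPM at 24 h, against 229.4 and 179.2 CPM at 6 h, a fold change of -0.49 ± 0.16 and an adjusted p of 0.034 by DESeq2. The times did not overlap for CBX3 or for CHD4. Without 24 h replicate 2 the fold changes fitted by edgeR were 0.27 for CBX3 and -0.34 for CHD4. Without 6 h replicate 1 they were 0.39 and -0.31, and without 6 h replicate 2 they were 0.55 and -0.66. The calls of both genes by DESeq2 depended on which library was left out. After correction for length and GC content the fold changes were 0.073 for CBX3 and -0.31 for CHD4, where edgeR called neither without the block and CHD4 alone with it. TRIM28, the corepressor that binds the KRAB box and itself a gene of chromosome 19, had 212.9 and 177.6 CPM at 24 h, against 251.9 and 225.8 CPM at 6 h. Its fold change of -0.29 ± 0.12 was not called in all 4 libraries by DESeq2 (adjusted p of 0.138) or the unblocked fit of edgeR. SETDB1, the histone methyltransferase, had 39.1 and 40.8 CPM at 24 h, against 41.1 and 40.8 CPM at 6 h. CBX1 (-0.33), CHD3 (-0.32), MORC2 (-0.34), DNMT1 (-0.29) and MPHOSPH8 (-0.28) had negative fold changes, SUMO2 (0.29) and PPHLN1 (0.21) positive ones. None of these was called in all 4 libraries by DESeq2 or the unblocked fit of edgeR. Without 24 h replicate 1 the fold changes fitted by edgeR were -0.44 for TRIM28, -0.46 for CBX1, -0.47 for MORC2, 0.37 for SUMO2, 0.64 for CBX3 and -0.68 for CHD4. The blocked fit of all 4 libraries called these 6 and CHD3, DNMT1, MPHOSPH8 and PPHLN1. Of its calls 3 were higher and 7 lower, where it called 18.9% and 17.7% of all tested genes. After correction for length and GC content it called CBX1 (-0.45), SUMO2 (0.21), CHD4 and MPHOSPH8 (-0.29). It then did not call TRIM28 (-0.14), MORC2 (-0.17), CHD3 (-0.078), DNMT1 (-0.097), CBX3 or PPHLN1 (-0.063). The share of all tested genes called by the blocked fit after this correction is not given here. CBX5, ATF7IP, HDAC1, HDAC2 and FAM208A lay between -0.18 and 0.07.

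Other C2H2 genes of chromosome 19 that carry names of the ZFP, ZSCAN, ZBTB or similar kind were 18 in number from a fixed list. Of these 6 were expressed and 7 had no count, and of the 6 that were tested 2 had a positive fold change. The unblocked fit of edgeR called none, and DESeq2 gave an adjusted p to ZBTB7A alone (0.054). Their summed level was 77.9 and 69.8 CPM at 24 h, against 96.5 and 87.2 CPM at 6 h. Most of this sum came from ZBTB7A, which had 51.2 and 44.1 CPM at 24 h, against 65.4 and 60.9 CPM at 6 h. The blocked fit of edgeR called ZBTB7A (adjusted p of 0.0010), where it called 17.7% of all tested genes lower. Its fold change was -0.41 in the unblocked fit, and -0.16 after correction for length and GC content.

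Windows shared between paralogs were found in most members. Of 249 members with a transcript in GENCODE, 59 held no window of 50 bases found in another gene, and 46 of these were expressed. Of 147 members with a share up to 10%, 84 were expressed, and of 43 with over 10%, 21 were. The tested members with no shared window had a median fold change of 0.05, with 25 of 48 positive, and a median GC content of 47.7%. Those with a share up to 10% had a median of 0.26, with 76 of 91 positive, and a GC content of 41.7%. Those with over 10% had a median of 0.08, with 14 of 22 positive, and a GC content of 43.7%. Across the tested members the fold change had a Spearman correlation of 0.24 with the share. After correction for length and GC content the medians were -0.0035 with no shared window, 0.21 up to 10% and 0.11 over 10%. The part of shared reads in these values was not tested. Genes that overlap another gene in the table made up 104 of the 253 members, and the share expressed was 58.7% among them and 60.4% among the others.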

How the data were processed

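RNA-seq counts of TPC1 cells after 24 h and 6 h of BGJ398 were analysed, 2 libraries per time. The authors deposited read counts per gene, whole and not normalised, with hg19 coordinates. The submitters' processing notes name STAR 2.3 and DESeq2, whereas the methods of the study name a later STAR. The labels give single-end reads of 50 bases and the methods paired-end reads. For the counting, tool, annotation and strand setting were not given in the sources used here, and reads of overlapping genes and of close paralogs cannot be told apart.

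Counts were tested with edgeR 4.0.16 in R 4.3.3 (TMM scaling, filterByExpr, quasi-likelihood test, Benjamini-Hochberg adjusted p under 0.05 over 12549 genes). DESeq2 1.42.0 was the alternative. CPM used library totals of 24958447 to 26325512 counts scaled by TMM. A mean of 1 CPM counted as expressed. Trends on length and GC content were fitted with mgcv 1.9.3. Length, GC content, fingers, the KRAB motif and shared windows of 50 bases came from canonical transcripts of GENCODE 44, matched by identifier for 249 members, and their coordinates were not used with those of hg19. A finger was the pattern of 2 cysteines and 2 histidines at their usual spacing, and the KRAB motif was either of a pair of short conserved stretches of the box A. No protein table was given, so likeness between proteins was not compared. 5 symbols occur on 2 identifiers each and were kept apart. Figures were drawn with matplotlib 3.10.9. The code was tested on simulated counts.

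The members and lists were chosen with earlier results of these data known. The named genes were the 10 highest members by CPM and by CPM per kb, the leading member of each cluster, the 6 per direction with the smallest p, members called by edgeR or else by DESeq2, the 3 with the most fingers and the corepressor list. Some genes of the lists are not reported here. ZNF708, ZNF724P and other members that bound a run were named after their values were seen.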

Additional observations from a re-analysis of the deposited data

How the results depend on the processing

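The absence of calls by edgeR depended on the libraries and on the replicate block. Leaving out each library in turn gave 0 to 21 members called, 21 without 24 h replicate 1 (17 higher and 4 lower) and 8 without 6 h replicate 2 (8 higher). With the replicate number as a block 28 members were called (24 higher and 4 lower, where 18.9% and 17.7% of all tested genes were), and 21 when a length and GC trend was removed as well (17 higher and 4 lower). The samples share only a number, since no label says that it marks a shared culture, and deviations of samples with the same number had a correlation of 0.43. DESeq2 called 1 member, and 2 or 0 members without single libraries, an alternative chosen after seeing the data (2 without 24 h replicate 1). An unadjusted p under 0.01 with a log2 fold change beyond 0.5 took 2 members. For this cutoff, for DESeq2 without single libraries and for the blocked fit without the trend, the share of all genes called is not given here. These counts can therefore not be set against the rate over all genes. The other scalings and filters called 0. The cause of these differences was not tested. The median of the tested members kept its sign in all settings and ran from 0.081 without 24 h replicate 2 to 0.31 without 24 h replicate 1. The number of expressed members ran from 150 to 203 over the alternative thresholds and libraries. A gap of 0.5 Mb gave 21 clusters and 1 of 2 Mb gave 9. ZNF146 ranked 2 per kb and 1 by CPM.

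Of the 50 tested genes that were named, none passed by edgeR in all libraries, 21 passed with the replicate block and 3 by DESeq2. The block called 18.9% of all tested genes higher and 17.7% lower, and DESeq2 called 5.59% and 2.65% of 7410 genes. Some of the 50 were named for a small p or a call in these same libraries, which raises such counts. Some fold changes turned sign. With the length and GC trend removed, alone and with the replicate block, they were -0.037 and -0.034 for ZNF114, -0.0094 and -0.011 for ZNF580, -0.062 and -0.063 for PPHLN1, and 0.077 and 0.077 for SETDB1. The ranges over the 4 fits that leave out a library crossed 0 for ZNF114 (-0.18 to 0.24), ZNF274 (-0.019 to 0.24), ZNF358 (-0.45 to 0.0022), ZNF45 (-0.029 to 0.12), ZNF507 (-0.082 to 0.038), ZNF581 (-0.19 to 0.10), ZNF787 (-0.47 to 0.0052), ZNF792 (-0.30 to 0.047), ZNF90 (-0.048 to 0.51), ZNF91 (-0.34 to 0.70) and ATF7IP (-0.32 to 0.060). With 1 library left at a time point, that library is assumed to vary like the others. Low counts limit the values of the 92 members that were not tested.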
